A study of Homo sapiens with 6 samples.

Results

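The genes described here are 10 adhesion molecules of the immunoglobulin superfamily: VCAM1, ICAM1, ICAM2, ICAM3, L1CAM, ALCAM, MCAM, NCAM1, F11R and CADM1. They are 10 of the 38170 annotated features in the deposited table, and 9 of them had enough counts to be tested, NCAM1 being the exception. The set was chosen by gene name after the difference between the groups was known from these same libraries, so the differences of its members between the groups are a description. Where a member is said to be called, this only records where it fell in the fit over all features, and it is no independent evidence. The study asked what changes in A549 cells, an established human lung adenocarcinoma line, when LOC401312, a long non-coding RNA, is overexpressed. The LOC401312 cells carried the transcript in piggyBac, a transposon that inserts its cargo into the genome, and the control cells carried the empty vector. RNA was sequenced from 3 libraries of each group, without further treatment named in the labels. Both groups were thus A549 cells that had received a vector, and untransfected cells were not analysed here. The promoter that drives LOC401312, the time after transfection and whether each line is 1 clone are not known from the sources used here.

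Immunoglobulin adhesion molecules are single-pass or lipid-anchored surface proteins built of extracellular immunoglobulin domains, which bind integrins or other immunoglobulin proteins on neighbouring cells. VCAM1 and the ICAMs are best known from blood vessel walls, where they hold leukocytes through integrins, and inflammatory cytokines induce VCAM1 and ICAM1 through NF-kB in endothelium and in airway epithelium. L1CAM, NCAM1 and ALCAM take part in nerve outgrowth and are also found on carcinoma cells, while F11R and CADM1 sit at contacts between epithelial cells.

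Library totals ran from 60971105 to 73994619 counts. LOC401312 has no row under its own name in the table. Its RefSeq span on chromosome 7, 22649960 to 22665533 (GRCh38.p14), is that of 1 of the 8 transcripts filed under STEAP1B, and the counts of that entry are not split by transcript. The STEAP1B entry was nearly silent in vector replicates 1 to 3, with 9, 11 and 23 counts, and reached 94628, 92527 and 90297 counts in LOC401312 replicates 1 to 3. All 3 LOC401312 libraries were therefore high for the entry that includes LOC401312, although replicates 2 and 3 carry genotype labels, LOC401313 and LOC401314, that go against their titles. The labels do not say whether the 3 libraries of a group are separate cultures, so errors and p-values cover the spread among libraries only, and that spread may be technical. The 9 epithelial markers summed to 9426 to 10329 CPM (counts scaled to library size) in vector and 10007 to 10535 in LOC401312 libraries, led by KRT8. All 9 were tested, 2 were called higher and 1 lower, and their median log2 change was 0.14. The alveolar markers summed to 47 to 50.2 and 48.5 to 51.3 CPM, with SFTPA2 at 0, NKX2-1 at no more than 4 counts in any library and most of the sum from ABCA3. SFTPD and NAPSA of that list rose by 1.31 (SE 0.31, adjusted p = 0.0287) and 1.02 (SE 0.22, adjusted p = 0.0183), though the fits that left out 1 library called 0 or 1 of the list higher. The endothelial markers summed to 4.35 to 5.12 and 3.5 to 5.62 CPM, with TIE1, EMCN and SELE, 3 of the 12, at 0 in every library and ESAM the most abundant. Vector replicate 1 stood apart for some transcripts of leukocytes and fibroblasts: PTPRC had 256 counts there and 0 to 8 in the other 5 libraries, and COL3A1 had 1549 against 131 to 481. The leukocyte markers together summed to 53.5 to 69.8 CPM in vector and 65.2 to 71.6 in LOC401312 libraries. CD68, the most abundant of them, was the only 1 of the 6 tested that was called, higher at 0.41 (SE 0.07, adjusted p = 0.00525). The share over all features tested was 4.13% called higher and 4.58% lower, and each marker list here stands beside it. The fibroblast and pericyte markers summed to 62.5 to 92.5 CPM in vector and 46.9 to 48.5 in LOC401312 libraries. Of that list COL1A1 and COL1A2 were lower in every LOC401312 library than in any vector library, by -0.95 (SE 0.09, adjusted p = 0.000149) and -1.44 (SE 0.13, adjusted p = 0.000182). The other 8 of the 10 tested were not called, and the list's median log2 change was -0.035. PDGFRB, named after its values were seen, was higher in every LOC401312 library than in any vector library, at 1.04 (SE 0.42, adjusted p = 0.168). The part of these transcripts in the members' values was not tested, and the members' values without vector replicate 1 are given with the results.

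The 250 bases upstream of the start site are shown for 3 members: VCAM1 and ICAM1, the textbook NF-kB responders of the set, and ALCAM, the member that was lower in the LOC401312 libraries. They are RefSeq sequences of the plus strand of GRCh38.p14, at chr1:100719492-100719741 for VCAM1, chr19:10270870-10271119 for ICAM1 and chr3:105366659-105366908 for ALCAM, and RefSeq promoter windows matched 6 of the 10 members. Capitals mark matches on either strand to the NF-kB consensus, to the related pattern GGGNNNNCCC, to GGAAATTCC or to TATAAA.
VCAM1: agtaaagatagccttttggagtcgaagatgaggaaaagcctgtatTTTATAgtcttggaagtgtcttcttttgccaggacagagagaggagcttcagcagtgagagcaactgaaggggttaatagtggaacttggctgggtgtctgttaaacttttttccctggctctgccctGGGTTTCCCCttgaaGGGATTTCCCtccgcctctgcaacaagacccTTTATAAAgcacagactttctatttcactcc
ICAM1: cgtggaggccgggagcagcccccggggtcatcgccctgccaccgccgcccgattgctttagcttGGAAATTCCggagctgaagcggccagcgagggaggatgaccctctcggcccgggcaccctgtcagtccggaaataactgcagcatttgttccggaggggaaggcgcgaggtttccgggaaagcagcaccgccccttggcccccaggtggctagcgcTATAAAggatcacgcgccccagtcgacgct
ALCAM: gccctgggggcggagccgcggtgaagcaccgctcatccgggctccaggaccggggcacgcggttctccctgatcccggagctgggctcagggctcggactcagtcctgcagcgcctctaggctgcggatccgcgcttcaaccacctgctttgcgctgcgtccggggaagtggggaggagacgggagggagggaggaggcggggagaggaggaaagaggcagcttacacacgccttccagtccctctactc

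Counted back from the base before the start site as -1, the VCAM1 window holds the NF-kB consensus at -62 to -53 (GGGATTTCCC) and a second match, to GGGNNNNCCC only, at -77 to -68 (GGGTTTCCCC). A TATAAA lies at -29 to -24, overlapping a match on the other strand at -31 to -26. Another match on that other strand lies at -205 to -200 (TTTATA). The ICAM1 window holds no match to the full consensus or to GGGNNNNCCC, but GGAAATTCC lies at -186 to -178 and TATAAA at -30 to -25. None of the 4 motifs occurs in the ALCAM window. Of the 35116 RefSeq windows of the same length, 9.96% hold the consensus, 16.1% GGGNNNNCCC, 0.413% GGAAATTCC and 10.7% TATAAA. The patterns overlap: 2043 of the 3498 windows with the consensus also hold GGGNNNNCCC. GC content was 46% for VCAM1, 66% for ICAM1 and 68.8% for ALCAM, against a median of 58% over all windows. Of the other members with a window, ICAM3 holds the consensus at -56 to -47 (GGGAGGCCCC) of its first start site, and L1CAM and MCAM hold only GGGNNNNCCC. These matches describe letters and say nothing of binding in these cells, and GGAAATTCC was added to the search after the windows had been read.

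Across the 10 members, VCAM1, ICAM1, L1CAM and F11R were higher in LOC401312 than in vector libraries, and ALCAM was lower. These 5 are the members called in edgeR's quasi-likelihood fit over all features, at a threshold of 0.05 on the adjusted p. Over the 19620 features tested, 811 were called higher (4.13%) and 899 lower (4.58%), 8.72% in either direction, so 4 higher and 1 lower of 9 stand beside that background. On the authors' FPKM, limma called 1599 features higher and 308 lower. Since the members were selected on this contrast, nothing is read from their share. CADM1, MCAM, ICAM3 and ICAM2 were not called. In CPM, the 3 vector and the 3 LOC401312 libraries did not overlap for 6 of the 10 members, the 5 called and CADM1, while 27.9% of the features tested showed such separation.

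VCAM1, the endothelial receptor for the integrin that ITGA4 and ITGB1 form, had the largest difference of the set. Its counts were 33, 25 and 12 in vector replicates 1 to 3 and 495, 367 and 472 in LOC401312 replicates 1 to 3. The LOC401312 libraries were all high and the vector libraries all close to the detection limit, and the lowest LOC401312 library exceeded the highest vector library 12.1-fold in CPM. The mean was 0.353 CPM ± 0.137 (SD, n = 3) in vector and 6.49 ± 0.962 (SD, n = 3) in LOC401312 libraries, a log2 change of 4.19 (SE 0.29) or 18.2-fold. Only 13 of the 19620 features, VCAM1 among them, had a log2 change at least as large. Without vector replicate 1 the change was 4.40, and without LOC401312 replicates 2 and 3 it was 4.30. Per transcript length it stayed a minor transcript, at 0.06, 0.05 and 0.02 FPKM (counts scaled to transcript length and library size) in vector and 1.03, 0.77 and 1.01 FPKM in LOC401312 libraries. In bulk RNA, more cells that express VCAM1 and more VCAM1 RNA per cell cannot be told apart. Of the 12 endothelial markers, 3 were at 0 and 7 had enough counts to be tested. DESeq2 and limma on FPKM called 0 of the markers, but neither gave an adjusted p for KDR, TEK or VWF, and limma gave none for PECAM1. EdgeR called 0 of the 7, with 1 at an unadjusted p under 0.05. That gene, TEK, had 11, 8 and 10 counts in vector and 28, 37 and 23 counts in LOC401312 libraries, without overlap, at 1.52 (SE 0.52, adjusted p = 0.107). The part of endothelial transcripts in the VCAM1 values was not tested.

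ICAM1, which binds the integrins that ITGB2 forms with ITGAL or ITGAM, was present in both groups. It had 800, 677 and 686 counts in vector and 1318, 1287 and 1147 counts in LOC401312 libraries. All 3 LOC401312 libraries lay above all 3 vector libraries. The mean was 11.1 CPM ± 0.282 (SD, n = 3) in vector and 18.2 ± 0.923 (SD, n = 3) in LOC401312 libraries, a log2 change of 0.72 (SE 0.08) or 1.65-fold. ICAM1's change was thus far smaller than that of VCAM1, with 1029 of the 19620 features changing upward by as much or more. The ratio of ICAM1 to VCAM1 in FPKM was 43.5, 51.4 and 126 in vector libraries and 4.68, 6.17 and 4.28 in LOC401312 libraries, so ICAM1 stayed the more abundant of the pair per length. Leaving out each library in turn gave 0.69 to 0.76 for ICAM1 and 3.90 to 4.40 for VCAM1. The opposite-strand feature AC011511 that overlaps ICAM1 had at most 4 counts in any library.

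**Figure D1:**
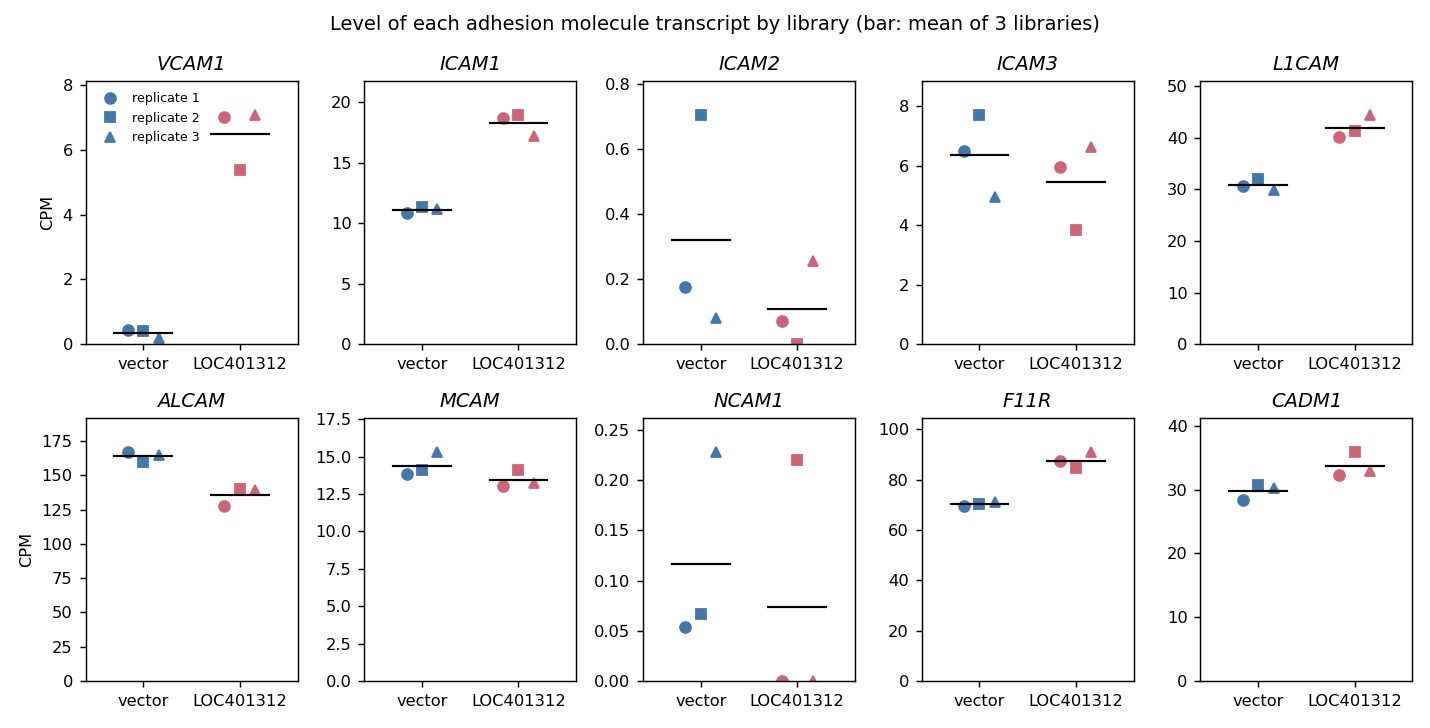
Level of each of the 10 adhesion molecules in CPM (vertical axes, each from 0 on its own linear scale) in the 3 vector (blue) and 3 LOC401312 (red) libraries. Circles, squares and triangles are replicates 1, 2 and 3 of a group, and bars are group means. VCAM1 goes from 0.353 to 6.49 CPM on average, ICAM1, L1CAM and F11R separate upward and ALCAM downward, while ICAM2, ICAM3, MCAM and NCAM1 overlap.

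The other ICAMs did not share this pattern. ICAM3, a leukocyte ligand of ITGAL-containing integrin, had 481, 460 and 304 counts in vector and 419, 261 and 442 counts in LOC401312 libraries. The ranges overlapped, with the lowest value in LOC401312 replicate 2 and the highest CPM in vector replicate 2. The log2 change was -0.22 (SE 0.22), between 6.37 CPM ± 1.38 (SD, n = 3) and 5.46 ± 1.46 (SD, n = 3). Its replicates varied by a CV of 21.6% in vector and 26.7% in LOC401312 libraries, where counting alone gives 4.91% and 5.17%. ICAM3 shares its locus with AC114271 on the opposite strand, which had 106, 76 and 131 counts in vector and 155, 164 and 83 counts in LOC401312 libraries. Whether counting used strand is not stated in the labels or headers, and without strand the reads of the 2 features cannot be told apart. ICAM2, an endothelial and platelet ICAM, was near the detection limit, at 13, 42 and 5 counts in the vector replicates and 5, 0 and 17 counts in the LOC401312 replicates. Its log2 change of -1.54 (SE 1.12) became -0.25 without vector replicate 2, the library with 42 counts. The leukocyte transcript PTPRC was high in vector replicate 1, where ICAM3 and ICAM2 were both intermediate in CPM among the 6 libraries. Without that library ICAM3 gave -0.21 and ICAM2 -1.84.

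L1CAM, a neural adhesion molecule that binds itself and integrins, had 2282, 1907 and 1833 counts in vector and 2836, 2815 and 2956 counts in LOC401312 libraries. Every LOC401312 library was above every vector library. The mean was 30.8 CPM ± 1.05 (SD, n = 3) in vector and 41.9 ± 2.12 (SD, n = 3) in LOC401312 libraries, a log2 change of 0.44 (SE 0.06) or 1.36-fold. NCAM1, the classical neural cell adhesion molecule, was not expressed at a level that could be compared. The vector replicates held 4, 4 and 14 of its reads and the LOC401312 replicates 0, 15 and 0, and these overlapped. Of the 11 neural markers, STMN2, DCX and SOX10 were at 0 and 6 were tested. Their sum of 261 to 289 CPM in vector and 321 to 332 CPM in LOC401312 libraries came mainly from TUBB3. TUBB3, a neuronal tubulin, was called higher with L1CAM at 0.23 (SE 0.05, adjusted p = 0.0147), and so was SNAP25, a synaptic fusion protein, at 0.45 (SE 0.07, adjusted p = 0.00292). These were the 2 called higher of the 6 tested, and 1 was called lower, against 4.13% and 4.58% over all features. The list's median log2 change was -0.342. SYP, named after its values were seen, was lower in every LOC401312 library than in any vector library. It stood at -0.84 (SE 0.25, adjusted p = 0.0667) in edgeR, while DESeq2 called it lower (adjusted p = 0.0351). The part of cells with neural transcripts in the L1CAM values was not tested.

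ALCAM, a ligand of the T cell receptor CD6 that also binds itself, was the most abundant member and the only one called lower. It had 12409, 9537 and 10148 counts in vector and 8994, 9574 and 9293 counts in LOC401312 libraries. Scaled for depth these were 167, 160 and 165 CPM against 128, 140 and 139 CPM, so all LOC401312 libraries lay below all vector libraries. The log2 change was -0.27 (SE 0.05), a ratio of 0.828. In FPKM the order was kept, with 19.5, 17.4 and 18 in vector and 15.8, 17 and 16.8 in LOC401312 libraries, but the gap shrank to -0.15 on the log2(FPKM + 0.1) scale and was not called by limma. Among features with a mean of at least 5 FPKM, the median log2 change was 0.109 on the FPKM scale and -0.0157 in counts. This shift applies to the FPKM difference of every member and of every other gene. MCAM, an adhesion molecule of vessels and melanoma, had 1022, 843 and 939 counts in vector and 917, 963 and 880 counts in LOC401312 libraries. MCAM overlapped between the groups, and its log2 change of -0.10 (SE 0.08) in counts turned to 0.03 on the log2(FPKM + 0.1) scale. It overlaps CBL on the opposite strand, a gene with 2192 to 2918 counts.

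F11R, the junctional adhesion molecule JAM-A of epithelial tight junctions, had 5153, 4203 and 4365 counts in vector and 6151, 5769 and 6071 counts in LOC401312 libraries. The groups did not overlap, and the vector libraries differed among themselves by a CV of only 1.13%. The mean was 70.2 CPM ± 0.794 (SD, n = 3) in vector and 87.6 ± 3.21 (SD, n = 3) in LOC401312 libraries, a log2 change of 0.32 (SE 0.04) or 1.25-fold. The overlapping feature AL591806 on the same strand had 384 counts in vector replicate 2 and at most 1 elsewhere, while F11R itself was at 70.3 CPM there, between the other vector libraries. CADM1, an epithelial and synaptic adhesion molecule that binds CRTAM, had 2111, 1836 and 1863 counts in vector and 2281, 2450 and 2200 counts in LOC401312 libraries. In CPM the groups were close but did not overlap, at 28.4, 30.7 and 30.3 against 32.3, 35.9 and 33. Its log2 change of 0.18 (SE 0.06) was not called in counts, and was 0.29 and called by limma on the log2(FPKM + 0.1) scale.

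Compared per transcript length, the order of the members in vector libraries was ALCAM (17.4 to 19.5 FPKM), F11R (10.9 to 11.5), L1CAM (3.2 to 3.54), ICAM1 (2.53 to 2.61) and CADM1 (2.15 to 2.18). ICAM3 (1.38 to 2.16 FPKM) overlapped both CADM1 above it and MCAM (1.49 to 1.61) below it, and VCAM1, ICAM2 and NCAM1 were under 0.2 FPKM in every vector library. In LOC401312 libraries the same order held for the means of the first 5, but F11R (14.5 to 15.6 FPKM) had come close to ALCAM (15.8 to 17). The ratio of F11R to ALCAM in FPKM was 0.589, 0.625 and 0.61 in vector and 0.97, 0.855 and 0.927 in LOC401312 libraries. The 10 members together summed to 39.9 to 42.9 FPKM in vector and 47.6 to 49.2 FPKM in LOC401312 libraries. ALCAM and F11R made up 70.2% to 72.6% of that sum in vector and 64.9% to 66.2% in LOC401312 libraries. VCAM1 went from the range of ICAM2, which it overlapped in vector libraries, to 0.77 to 1.03 FPKM, below all other members except ICAM2 and NCAM1.

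Among the receptors and counter-ligands of the members, 13 of 18 in the table were tested, 3 were called higher and 1 lower, with a median log2 change of 0.098 against -0.001 over all features. Over all features tested, 4.13% were called higher and 4.58% lower, and this list and those below stand beside that background. The lists were chosen with earlier results of these data known, so nothing is read from their shares. CNTN1, a contactin that binds L1CAM-family proteins, rose by 0.26 (SE 0.04, adjusted p = 0.00296) and averaged 345 CPM in vector and 415 CPM in LOC401312 libraries. MUC1, a mucin that binds ICAM1, rose by 0.46 (SE 0.10, adjusted p = 0.0201), and ITGB1, the beta chain of the VCAM1 receptor, by 0.12 (SE 0.03, adjusted p = 0.0491). FGFR1, which interacts with neural adhesion molecules, fell by 0.19 on the log2 scale (SE 0.04, adjusted p = 0.0278). Limma on FPKM did not call FGFR1 (adjusted p = 0.561). The upward shift of the FPKM scale given above applies to the limma results here and in the lists below. Of the leukocyte integrin chains that bind VCAM1 and ICAM1, edgeR did not call these 3, with ITGA4 at 0.10 (SE 0.10), ITGB2 at -0.37 (SE 0.16) and ITGAL at -1.73 (SE 0.48, adjusted p = 0.0543). They were chosen after their values were seen, and DESeq2 called ITGAL lower (adjusted p = 0.0294). ITGB2 and ITGAL were highest in vector replicate 1, the library with PTPRC counts, at 655 and 99 counts. When vector replicate 2 or 3 or LOC401312 replicate 2 or 3 was left out, 1 gene was called higher and 0 lower. With both LOC401312 replicates 2 and 3 left out, edgeR made 0 calls in this list.

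Of 22 membrane anchors and adaptors tested, 2 were called higher and 2 lower, with a median of 0.081. ANK2, an ankyrin that links L1CAM-family tails to spectrin, rose by 0.50 (SE 0.11, adjusted p = 0.0209), and FLNA, an actin crosslinker, by 0.15 (SE 0.03, adjusted p = 0.0228). The kinase SRC fell by 0.23 on the log2 scale (SE 0.04, adjusted p = 0.0102) and the 4.1 protein EPB41L1 by 0.20 (SE 0.04, adjusted p = 0.0209). Limma on FPKM did not call ANK2, SRC or EPB41L1 (adjusted p = 0.0821, 0.153 and 0.292). EZR, MSN and RDX, the linkers between ICAM and VCAM1 tails and actin, were not called by edgeR, at 0.00, 0.11 and 0.08, but MSN was called higher by DESeq2 (adjusted p = 0.0104) and by limma on FPKM (adjusted p = 0.0185). They were singled out after their values were seen. The fits that left out 1 library gave 0 to 3 calls higher, 0 without any 1 of the LOC401312 replicates, and 0 to 2 lower.

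The proteases that cut these proteins from the surface, with their inhibitors, gave 1 call higher and 2 lower of 16 tested, with a median of 0.029. TIMP3, an inhibitor of metalloproteases, had 347, 316 and 315 counts in vector and 17, 49 and 44 counts in LOC401312 libraries. The groups were far apart, a fall of 3.22 on the log2 scale (SE 0.34, adjusted p = 0.000374). MMP14, a membrane-bound metalloprotease, fell by 0.94 on the log2 scale (SE 0.15, adjusted p = 0.00389), and MMP9, a secreted gelatinase, rose by 1.16 (SE 0.30, adjusted p = 0.0404) to a mean of 2.24 CPM. MMP9 kept its call without vector replicate 3 and lost it without any other single library. ADAM10 and ADAM17, the main sheddases of L1CAM, ALCAM and VCAM1, were not called, at 0.07 (SE 0.04) and -0.15 (SE 0.05, adjusted p = 0.0885). Both were named after their values were seen.

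Among the transcription factors and receptors that control VCAM1 and ICAM1, 41 of 42 were tested, with 5 called higher, 2 lower and a median of 0.017. TLR4, the lipopolysaccharide receptor, had 87, 46 and 82 counts in vector and 260, 202 and 291 counts in LOC401312 libraries, without overlap. Its log2 change was 1.75 (SE 0.26, adjusted p = 0.00262). TLR4 was not called by limma on the FPKM values, which averaged only 0.0633 and 0.24. NFKB2, which encodes the p52 precursor, averaged 83 CPM in vector and 102 CPM in LOC401312 libraries, a log2 change of 0.30 (SE 0.04, adjusted p = 0.00213). The interleukin 1 receptor IL1R1 fell by 0.38 on the log2 scale (SE 0.04, adjusted p = 0.0008). The other 3 called higher, named after their values were seen, were RELB at 0.44, IL1RAP at 0.43 and IFNGR1 at 0.22. The main NF-kB subunits RELA and NFKB1 and the inhibitor NFKBIA, also named afterwards, were not called by edgeR, at -0.00, 0.12 and 0.02, while limma on FPKM called NFKB1 higher (adjusted p = 0.045). The 5 calls higher became 3 when vector replicate 2 or 3 or LOC401312 replicate 2 or 3 was left out, and edgeR made 0 calls with both of those LOC401312 replicates left out.

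The genes that cytokines induce together with VCAM1 and ICAM1 showed 9 called higher and 1 lower of 27 tested, with a median log2 change of 0.257. Over all features tested 4.13% were called higher and 4.58% lower, and this list too was chosen with earlier results of these data known. CXCL5, a neutrophil chemokine, had 21342, 16938 and 16394 counts in vector and 31777, 31494 and 31810 counts in LOC401312 libraries, a rise of 0.73 (SE 0.04, adjusted p = 1.26e-05). CXCL1, a related chemokine, rose by 0.65 (SE 0.05, adjusted p = 6.47e-05). TNFAIP3, which restrains NF-kB in feedback, changed by 0.69 (SE 0.06, adjusted p = 8.12e-05), and PTGS2, the inducible cyclooxygenase, by 0.49 (SE 0.04, adjusted p = 0.000114). All 4 had changes well under that of VCAM1. Those of CXCL5, CXCL1 and TNFAIP3 were near that of ICAM1 (0.72), and that of PTGS2 was smaller. The other 5 called higher, named after their values were seen, were CCL5 at 0.80, CXCL2 at 0.56, SOD2 at 0.53, BIRC3 at 0.44 and C3 at 0.26. TNFAIP2, also named afterwards, was the gene called lower, at -0.16, and kept its call only without vector replicate 1 among the fits that left out 1 library. The endothelial selectin SELE had 0 counts in every library and SELP 4 counts in vector replicate 1 alone, so the selectins that accompany VCAM1 on inflamed endothelium were at or near 0. The 9 calls higher were 9 in each fit that left out 1 library and 5 without LOC401312 replicates 2 and 3.

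**Figure D2:**
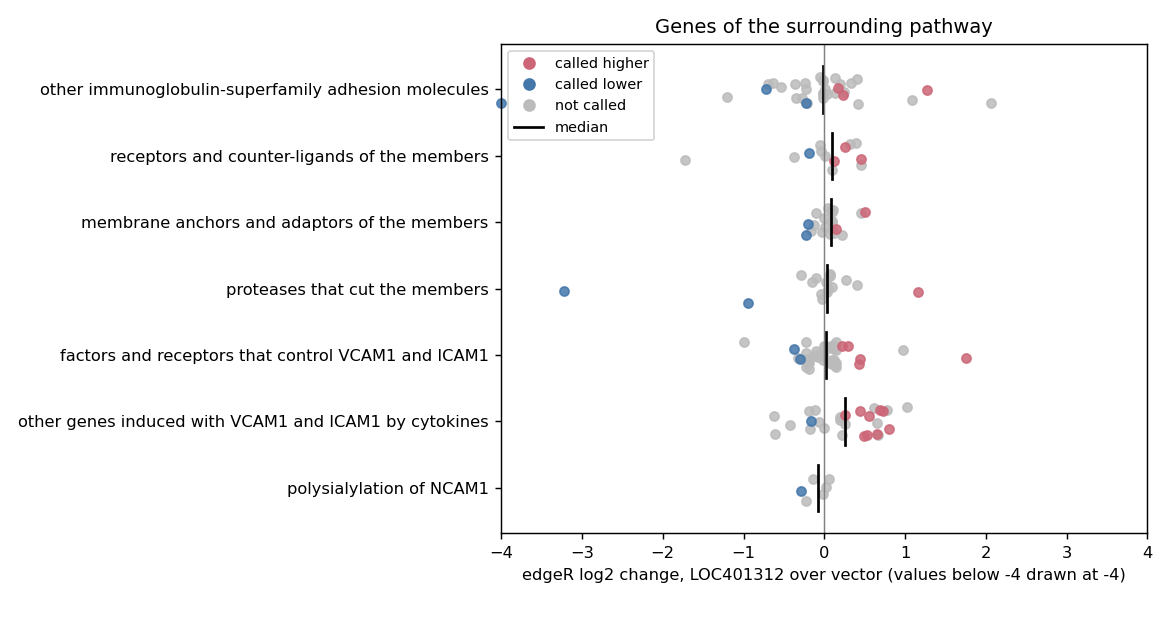
Log2 change of every tested gene (horizontal axis, LOC401312 over vector, values under -4 drawn at -4) in the 7 lists of related genes, with the median of each list as a black bar. Red points were called higher, blue lower and grey not called; the cytokine-induced list has its median at 0.257 and 9 red points, and the other medians lie between -0.074 and 0.098.

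Other immunoglobulin adhesion molecules gave 3 calls higher and 3 lower of 33 tested, with a median of -0.009. CEACAM6, a carcinoma-associated relative of CEA, rose by 1.27 (SE 0.09, adjusted p = 5.87e-05), with means of 17.2 and 41.6 CPM, although reads of its close paralogs could have been counted with it. NPTN, neuroplastin, rose by 0.17 (SE 0.04, adjusted p = 0.0213). THY1, a lipid-anchored molecule of fibroblasts and neurons, fell by 0.72 on the log2 scale (SE 0.10, adjusted p = 0.0015). The fibroblast markers COL1A1 and COL1A2 also fell, while the other 8 of the 10 tested in their list were not called. The part of fibroblast transcripts in the THY1 values was not tested. NRCAM, the L1CAM relative, fell by 0.22 on the log2 scale (SE 0.04, adjusted p = 0.00867), so that edgeR called L1CAM and NRCAM, of the same subfamily, in opposite directions. Limma on FPKM did not call NRCAM (adjusted p = 0.349). CD47 at 0.23 and NCAM2 were the remaining calls and were named after their values were seen. NCAM2 had 132, 11 and 10 counts in vector and 0, 0 and 3 counts in LOC401312 libraries. NCAM2 was not called without vector replicate 1, the library with leukocyte and fibroblast transcripts, nor without any 1 of the LOC401312 replicates. The 3 calls higher became 1 without vector replicate 3 or any 1 of the LOC401312 replicates. For polysialylation, the sugar modification of NCAM1, 1 of 6 genes tested was called, GNE, which makes the sialic acid precursor. GNE fell by 0.29 on the log2 scale (SE 0.05, adjusted p = 0.00567) and was not called by limma on FPKM (adjusted p = 0.144). SLC35A1, the sialic acid transporter, was not called at -0.23 (SE 0.09, adjusted p = 0.161).

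Genes beside VCAM1 and ICAM1 were compared to see whether a wider stretch of each chromosome differed. VCAM1 (ENSG00000162692) lies on the plus strand of chromosome 1 at 100719742 to 100739045, and 9 other features with a start within 500 kb were tested. Of these AC093157 was called higher at 0.55 (SE 0.14, adjusted p = 0.0353). EXTL2, a glycosyltransferase gene, was called lower at -0.37 (SE 0.09, adjusted p = 0.0302). The 9 had a median of -0.02, DESeq2 called 2 and limma on FPKM 0, and 3 had an unadjusted p under 0.05. ICAM1 (ENSG00000090339) lies on the plus strand of chromosome 19 at 10271093 to 10285583, in a cluster with ICAM5 and ICAM3. Of 36 other features tested within 500 kb, edgeR called 0, DESeq2 0 and limma on FPKM 1, and 1 had an unadjusted p under 0.05. Their median was -0.01. ICAM5, a neuronal ICAM, was at -0.64 (SE 0.32, adjusted p = 0.277). Around F11R, edgeR called 0 of 21 neighbours, DESeq2 0 and limma on FPKM 2, with 2 at an unadjusted p under 0.05. Around L1CAM edgeR called 2 of 25, FLNA higher and BGN lower, the latter at means of 0.741 and 0.0684 CPM. DESeq2 called 2 there and limma on FPKM 5, with 6 at an unadjusted p under 0.05. EdgeR called 2 of 23 around ICAM2 higher, 2 of 28 around MCAM lower and 1 of 2 around NCAM1 higher. Around ICAM3 the 1 call of 33 was ICAM1 itself, and ALCAM and CADM1 had 0 neighbours tested. Among all features tested, 8.72% were called in either direction. On the 6 chromosomes that hold members, the median log2 change of genes with at least 4 CPM lay between -0.007 and 0.011.

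**Figure D3:**
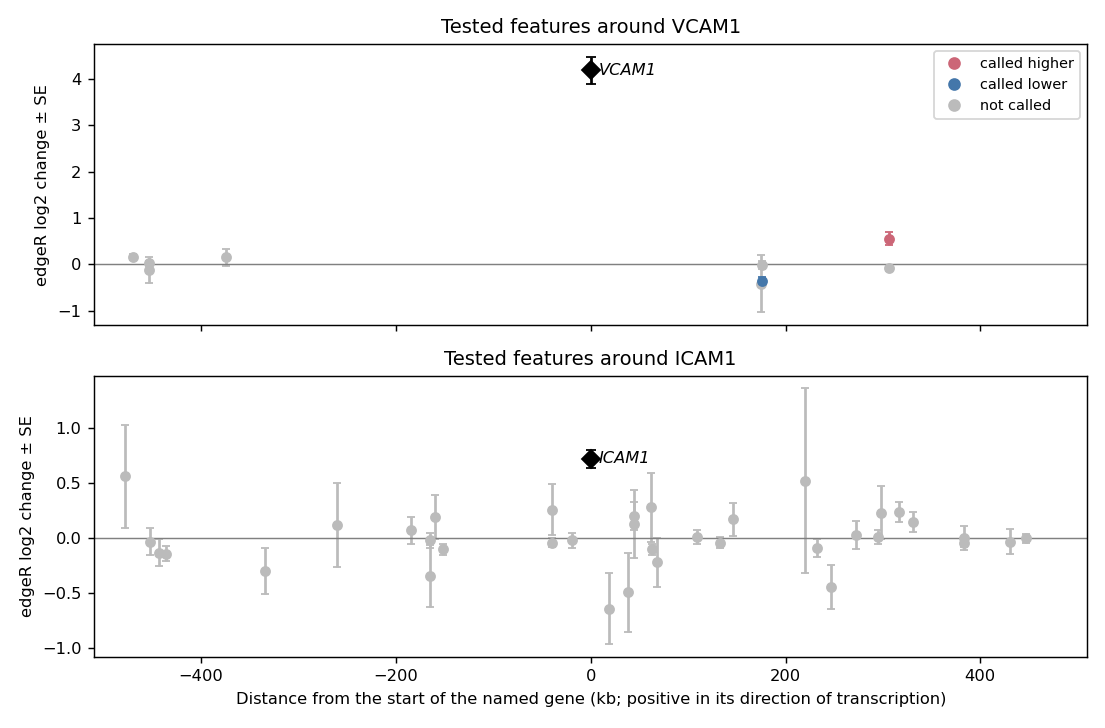
Log2 change with its SE (vertical axis) of every tested feature whose start lies within 500 kb of the start of VCAM1 (top) or ICAM1 (bottom), by distance in kb (horizontal axis, positive in the direction of transcription). The black diamonds are VCAM1 at 4.19 and ICAM1 at 0.72; of 9 neighbours of VCAM1 1 is red (called higher) and 1 blue (called lower), and all 36 neighbours of ICAM1 are grey.

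Over the 6 libraries, the features whose log2 CPM followed VCAM1 most closely, taken from 14499 that averaged 1 CPM or more, were ARHGAP31 (Pearson r = 0.9984), SNCG (0.9977), CLTCL1 (0.9975), R3HDM2 (0.9968) and SLC6A17 (0.9966). For ICAM1 they were BET1L (0.9995), IDH2 (0.9983), SLC43A2 (0.9982), CD59 (0.998) and ASB8 (0.9971). These values describe 6 libraries that fall into 2 groups, so any feature that separates the groups evenly has a high r. None of the 10 is another member or a gene of the cytokine-induced list. In the pathway annotation that the deposited table carries, 9 of the 10 members, all but MCAM, belong to cell adhesion molecules, and VCAM1 and ICAM1 also belong to NF-kappa B signaling. Of the 92 genes of the first that were tested 15 were called higher and 5 lower, with a median log2 change of 0.034. Of the 80 of the second 11 were called higher and 4 lower, with a median of 0.082. Both counts include the members, and over all features tested 4.13% were called higher and 4.58% lower.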

How the data were processed

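RNA was sequenced from 3 vector and 3 LOC401312 libraries, grouped by title. The authors deposited 1 table of raw counts, whole numbers for each feature and library, per the file headers. It also holds the authors' FPKM, adjusted for length and depth, per the file headers. The submitters' processing notes name cutadapt 1.9, FastQC and GRCh38 (hg38). The aligner, counter, annotation release and use of strand were not given in the sources used here.

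The members and gene lists were chosen with earlier results of these data known. All 38170 features entered 1 edgeR 4.0.16 quasi-likelihood fit in R 4.3.3 (TMM, filterByExpr, no covariate). P-values were adjusted by Benjamini-Hochberg over the 19620 features tested, with a threshold of 0.05. SE was taken as the log2 change over the square root of F, and CPM values use TMM-adjusted totals. All members were named. Up to 4 called genes with the smallest p were named per list, or the 2 with the smallest p where fewer than 2 were called, and the 5 features most like VCAM1 and ICAM1. A gene that this rule gives is not reported here. The scripts were tested on simulated data. The biological coefficient of variation was 17%. The simulation used a lower one, so it does not cover performance at this spread. Replicates differed beyond counting error (chi-square over its degrees of freedom, 13.96 to 23.15 for pairs within a group), so each counted as 1 sample. The 17 other settings were DESeq2 1.42.0, other scalings and filters, a replicate block, limma 3.58.1 on log2(FPKM + 0.1) and log2(FPKM + 1), libraries left out and a threshold of 0.01. Pathway annotation counts were added after the data were seen.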

Additional observations from a re-analysis of the deposited data

How the results depend on the processing

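As a description, since the members were chosen on this contrast, VCAM1 and ICAM1 kept their direction and call in all 17 other settings, VCAM1 between 0.89, on log2(FPKM + 1), and 4.40, and ICAM1 between 0.66 and 0.82. ICAM1 kept its call less securely than VCAM1, since its highest adjusted p over these settings lay at the threshold after rounding. Members called higher (4) fell to 2 and members called lower (1) to 0 without LOC401312 replicates 2 and 3, where L1CAM, F11R and ALCAM lost their calls at 0.39, 0.32 and -0.36; that fit has fewer samples and leaves 1 LOC401312 library, assumed to vary like the vector libraries. ALCAM was also not called, so members called lower were 0, by limma on log2(FPKM + 0.1), on log2(FPKM + 1) and with no filter on FPKM. CADM1 was called only by limma on log2(FPKM + 0.1), at 0.29. Leaving out each library in turn gave 4 members higher and 1 lower every time.

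Over all features, 811 called higher became 1599 by limma on log2(FPKM + 0.1), 1584 on log2(FPKM + 1), 84 without LOC401312 replicates 2 and 3, and 333 at a threshold of 0.01. The 899 called lower became 308, 303, 91 and 405 there, 180 with no filter on FPKM, and 577 with every feature of at least 1 count. Leaving out single libraries gave 393 (without LOC401312 replicate 2) to 963 (without vector replicate 1) higher and 439 to 1042 lower. The replicate numbers do not pair the samples: same-numbered libraries had deviations correlated at -0.055, -0.0271 and -0.0289. With the replicate block 509 features were called higher and 579 lower, and the members called stayed at 4 higher and 1 lower. The causes of these changes were not tested. ICAM2 and NCAM1 had no more than 42 counts in any library, and NCAM1 was not tested. The CPM of ICAM2 varied by a CV of 105% in vector and 121% in LOC401312 libraries, where counting alone gives 22.4% and 36.9%. A difference in either gene could have been missed at this depth and spread.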
